A study of Homo sapiens with 45 samples.

Results

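The comparison described here sets T47D cells with a control hairpin in hypoxia against the same cells in normoxia, over all genes. Its members are the 6 libraries of the shRNA count table whose labels give shCtrl with hypoxia (3 libraries) or shCtrl with normoxia (3 libraries), of 45 libraries in the series. T47D is an established human breast cancer line of luminal type that carries the oestrogen receptor. Both groups carry the lentiviral control hairpin shCtrl and were grown in RPMI medium with serum and antibiotic selection, and hypoxia was applied in a hypoxia workstation. The series used this comparison to find genes that are hypoxia-inducible before asking which of them depend on ZHX2, a transcription factor with zinc fingers and homeodomains. The oxygen level, the duration of hypoxia and whether the replicates were separate cultures are not given in the sources consulted, so p-values measure only the spread between these libraries, which may be technical. PolyA RNA was read in pairs of 150 bp, and the deposit holds whole-number counts per gene. Levels below are CPM, counts brought to a common library size, scaled by TMM, a method that sets libraries on one scale through the bulk of their genes, and ± is the SD over 3 libraries. A value given after a gene with no unit (in parentheses, or as the value the gene was at) is its log2 fold change, hypoxia over normoxia.

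Mammalian cells read oxygen through the EGLN prolyl hydroxylases, which mark the HIF alpha subunits for destruction by the VHL ubiquitin ligase as long as oxygen is present. When oxygen falls, HIF alpha persists, pairs with ARNT and binds DNA at the core letters ACGTG or GCGTG, next to genes that move a cell from respiration to glycolysis, export acid, call for blood vessels and remodel collagen. In breast tumours this response is known for its link to carbonic anhydrase 9, lactate export and spread to other organs.

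Most of the tested genes differed between the hypoxic and the normoxic libraries. Of 14903 genes tested, 6421 were higher, which is 43.1% of them, and 5485 were lower, which is 36.8% (edgeR quasi-likelihood test, Benjamini-Hochberg adjusted p under 0.05). Among these, 2286 genes were at least 2-fold higher (15.3%) and 3243 at least 2-fold lower (21.8%). In 11948 genes the 3 hypoxic libraries did not overlap the 3 normoxic ones. The counts that follow have to be read against these shares, and against the median log2 fold change of all genes, 0.12. Total counts were 18128570 to 19480495 per library and the common biological coefficient of variation was 4.15%. Hypoxic libraries had 9.12% to 9.57% of their counts on the mitochondrial genome and 27.3% to 27.7% on their 50 most abundant genes, against 4.55% to 4.76% and 18.1% to 18.4% in normoxic libraries. The mean GC content of the counted genes, weighted by counts, was 54.36% to 54.46% in hypoxia and 52.83% to 53.05% in normoxia. The TMM factors were 0.845 to 0.848 in hypoxia and 1.18 to 1.20 in normoxia. Plain library-size scaling shifted the median log2 fold change over all genes by -0.48, and 29.6% of the calls were then higher in place of 53.9%. With only the 6 compared libraries in the fit, 48.3% of the calls were higher.

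The libraries carried the markers of luminal breast epithelium and almost none of other cell types. KRT8, a luminal keratin, had 35453, 34867 and 35044 CPM in the hypoxic libraries, against 13231, 12357 and 12642 CPM in the normoxic libraries. GATA3, a luminal transcription factor, averaged 887 ± 11.6 CPM in hypoxia and 569 ± 6.03 CPM in normoxia, a rise that was not called once GC content and length were corrected for (the composition correction, 0.01). Of 16 markers of basal, fibroblast, endothelial, blood and fat cells only 2 passed the filter on low counts, and KRT5, COL1A2, PECAM1 and CD68 had 0 counts in all 6 libraries.

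Among the largest rises were CA9, PTPRN and NDRG1. CA9, a membrane carbonic anhydrase that removes acid from hypoxic cells (chromosome 9, 35673856 to 35681159 on GRCh38), had 374, 367 and 378 counts in the hypoxic libraries, against 0, 0 and 1 counts in the normoxic libraries. All 3 hypoxic libraries held many CA9 counts and the normoxic group held 1 in all. Summed and scaled, the ratio was 1583 (exact 95% binomial interval from counting 283.5 to 62570). PTPRN, found in the membranes of secretory granules, had 151, 154 and 195 counts in hypoxia, against 0, 2 and 0 counts in normoxia. NDRG1, a stress-induced gene that is one of the best known hypoxia markers, had 492, 485 and 477 CPM in the hypoxic libraries, against 6.10, 6.45 and 7.59 CPM in the normoxic libraries (log2 fold change 6.17, SE 0.04, adjusted p = 1.18e-69). It was the largest rise among the abundant genes, which were chosen from genes with no overlap between the groups.

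Genes of glycogen and lipid handling and of other pathways followed. PPP1R3C, which brings protein phosphatase to glycogen so that glycogen is built, had 3.71, 3.35 and 4.93 CPM in the hypoxic libraries, against 0.140, 0.0878 and 0 CPM in the normoxic libraries (log2 fold change 5.63, SE 0.37, adjusted p = 9.34e-21). ANGPTL4, a secreted inhibitor of lipoprotein lipase, had 830.0, 819 and 811 CPM in the hypoxic libraries, against 29.7, 23.5 and 25.6 CPM in the normoxic libraries, a 31.2-fold rise. The groups were far apart for both genes, and the replicates of the rarer PPP1R3C spread more widely. RIMKLA, an enzyme that joins N-acetylaspartate to glutamate, averaged 23 ± 0.535 CPM in hypoxia and 0.847 ± 0.0281 CPM in normoxia (26.9-fold). After the composition correction ANGPTL4 was at 3.94 (4.96 before it), RIMKLA at 5.13 (4.75 before it) and PPP1R3C at 6.38.

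Among receptors, channels and matrix proteins, KISS1R, the kisspeptin receptor, averaged 7.99 ± 0.711 CPM in hypoxia and 0.195 ± 0.0976 CPM in normoxia (40.1-fold). SCNN1G, which forms part of the epithelial sodium channel, averaged 4.59 ± 0.440 CPM in hypoxia and 0.120 ± 0.0684 CPM in normoxia (36.6-fold). CCN5, a secreted matricellular protein, averaged 22.5 ± 1.19 CPM in hypoxia and 0.707 ± 0.362 CPM in normoxia (31.9-fold). These are genes at or under 1 CPM in normoxia that became measurable in hypoxia. PPFIA4, a liprin scaffold protein, rose 37.3-fold, ISM2, a secreted isthmin, 33.6-fold, and SPAG4, a SUN-domain protein of the nuclear envelope, 29.7-fold to 155 ± 2.79 CPM against 5.24 ± 1.28 CPM. KISS1R, SCNN1G and CCN5 were at 5.32, 5.19 and 4.99, and at 4.16, 4.68 and 4.41 after the composition correction. PPFIA4, ISM2 and SPAG4 were at 5.22, 5.07 and 4.89, and at 4.65, 4.20 and 3.91 after it.

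Some genes crossed from no counts to many. EPO, the hormone erythropoietin and the gene in which HIF was first found, had 15, 28 and 28 counts in hypoxia and 0, 0 and 0 in normoxia, at least 33.5-fold higher when the normoxic group is set at a floor of 3 counts. SLC28A1, a nucleoside transporter, had 78 counts over the hypoxic libraries and 0 over the normoxic ones (at least 36.8-fold higher), and TMEM74B, a transmembrane protein gene, had 80 and 0 (at least 37.7-fold higher). TH, tyrosine hydroxylase of catecholamine synthesis, had 61 counts in hypoxia and 2 in normoxia, a ratio of 43.1 (exact 95% interval 11.4 to 364). In the other direction VCAN, the matrix proteoglycan versican, had 0 counts over the hypoxic libraries and 88 over the normoxic ones. These 4 genes after EPO were chosen after their values were seen. Counting intervals and floors cover counting error only.

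**Figure D1:**
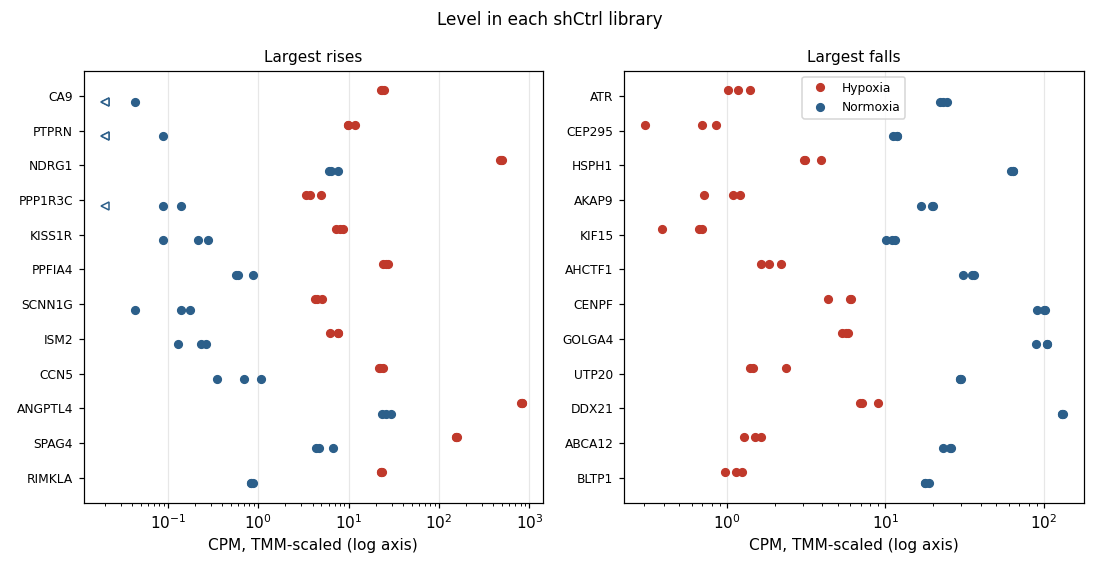
CPM on a log axis in each of the 3 hypoxic (red, upper row of points) and 3 normoxic (blue, lower row) shCtrl libraries, for the 12 largest rises (left) and the 12 largest falls (right). Open triangles at the left edge stand for libraries with 0 counts. CA9 lies between 23 and 24.4 CPM in hypoxia and ATR between 1.01 and 1.40 CPM. Only genes whose groups did not overlap could be chosen, so the groups are apart in all 24 by choice.

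HIF is known to bind the core letters given above, so the promoters of 8 genes are shown with these letters marked. They were picked because they hold a match, as the genes with the largest rises among those that led the rises or were list members at least 4-fold higher and have a RefSeq window, so that every promoter shown holds the letters by choice. PTPRN and EPO, which rose more than most of these 8, were passed over because they hold no match before the start. Each sequence is the 250 bases before the RefSeq gene start (GRCh38.p14), 5′ to 3′ in the direction of the gene, and capitals mark ACGTG or GCGTG on either strand, the other strand reading CACGT or CACGC. The letters CACGTG hold ACGTG on both strands and count as 2 overlapping matches. The windows are chr9:35673678-35673927 (plus strand) for CA9, chr10:91633072-91633321 (minus) for PPP1R3C, chr12:26125038-26125287 (minus) for BHLHE41, a repressor of the circadian clock, chr1:203026241-203026490 (plus) for PPFIA4, chr14:77498817-77499066 (minus) for ISM2, chr19:8363905-8364154 (plus) for ANGPTL4, chr1:42380542-42380791 (plus) for RIMKLA and chr10:131981924-131982173 (minus) for BNIP3, a mitophagy receptor.
CA9: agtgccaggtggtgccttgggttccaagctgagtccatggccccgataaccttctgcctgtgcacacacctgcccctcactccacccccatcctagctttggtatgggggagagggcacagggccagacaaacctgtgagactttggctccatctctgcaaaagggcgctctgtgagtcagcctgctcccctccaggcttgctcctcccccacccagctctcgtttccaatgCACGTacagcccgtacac
PPP1R3C: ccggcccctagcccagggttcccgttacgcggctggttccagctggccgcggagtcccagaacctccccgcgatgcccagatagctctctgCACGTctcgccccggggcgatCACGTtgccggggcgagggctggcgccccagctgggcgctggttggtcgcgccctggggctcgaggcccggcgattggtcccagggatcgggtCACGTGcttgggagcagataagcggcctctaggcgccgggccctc
BHLHE41: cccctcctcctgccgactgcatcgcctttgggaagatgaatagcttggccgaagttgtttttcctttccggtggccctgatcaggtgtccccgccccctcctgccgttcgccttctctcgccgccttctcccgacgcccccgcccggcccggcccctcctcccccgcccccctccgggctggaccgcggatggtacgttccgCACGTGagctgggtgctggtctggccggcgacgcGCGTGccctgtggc
PPFIA4: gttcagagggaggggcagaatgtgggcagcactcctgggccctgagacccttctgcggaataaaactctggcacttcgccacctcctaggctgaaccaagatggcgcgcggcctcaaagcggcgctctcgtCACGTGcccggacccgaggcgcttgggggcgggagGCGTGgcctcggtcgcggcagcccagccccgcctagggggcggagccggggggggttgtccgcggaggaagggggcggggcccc
ISM2: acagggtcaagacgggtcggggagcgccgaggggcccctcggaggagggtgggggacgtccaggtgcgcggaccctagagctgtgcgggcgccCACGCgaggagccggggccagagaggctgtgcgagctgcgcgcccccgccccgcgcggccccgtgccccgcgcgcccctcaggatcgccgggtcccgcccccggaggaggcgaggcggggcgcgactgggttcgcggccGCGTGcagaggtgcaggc
ANGPTL4: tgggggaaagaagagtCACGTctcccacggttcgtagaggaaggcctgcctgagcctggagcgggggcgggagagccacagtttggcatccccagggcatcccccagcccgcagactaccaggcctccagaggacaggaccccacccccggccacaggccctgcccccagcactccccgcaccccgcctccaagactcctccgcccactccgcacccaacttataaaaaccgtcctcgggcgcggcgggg
RIMKLA: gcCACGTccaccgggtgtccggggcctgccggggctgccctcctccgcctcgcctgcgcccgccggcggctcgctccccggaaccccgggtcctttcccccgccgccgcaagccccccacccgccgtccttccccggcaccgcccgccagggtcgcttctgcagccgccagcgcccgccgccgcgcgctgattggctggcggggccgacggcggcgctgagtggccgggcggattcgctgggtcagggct
BNIP3: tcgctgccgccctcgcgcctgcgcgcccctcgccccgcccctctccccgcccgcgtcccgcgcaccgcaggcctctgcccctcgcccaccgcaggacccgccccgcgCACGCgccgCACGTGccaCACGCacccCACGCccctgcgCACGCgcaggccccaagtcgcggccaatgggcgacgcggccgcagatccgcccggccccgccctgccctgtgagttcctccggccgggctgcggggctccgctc

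In these windows CA9 held 1 match, whose nearest base lay 14 bases before the start, PPP1R3C held 4 and BNIP3 held 6, nearest at 40 and 100 bases. In ANGPTL4 and RIMKLA the single match lay 230 and 244 bases before the start. The letters are common: of 35116 RefSeq promoter windows (250 bases before to 50 after the start) 48.4% held at least 1 match on either strand, ACGTG being in 21.4% and GCGTG in 36.5%. Of the 14903 tested genes 10832 had a window, and 63.3% of these held a match. The share was 58.5% of 94 genes at least 8-fold higher in hypoxia, 59.6% of 317 at least 4-fold higher, 61.8% of 1787 with no call and 65.9% of 1063 at least 4-fold lower. ACGTG alone was in 30.9%, 27.4%, 25.6% and 28.2% of the same sets. These are descriptions of letters in a short window, and a match is not a binding site. Of 41 genes that led the rises or were list members at least 4-fold higher, 33 held a match in their window. PTPRN, SLC16A3 and PDK1 were among the 8 that held none there.

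HIF subunits and their partners moved in different directions. Of 9 tested genes 5 were higher and 3 lower, with a median log2 fold change of 0.73, and 0.36 after the composition correction, both beside 0.12 and -0.12 for all genes. HIF1A, the subunit that drives the early response, had 5.21, 5.88 and 4.08 CPM in the hypoxic libraries, against 71.3, 71.9 and 74.3 CPM in the normoxic libraries (log2 fold change -3.84, SE 0.08, adjusted p = 7.34e-45). It was lower in every hypoxic library, and it stayed lower after the composition correction (-2.60). EPAS1, which encodes HIF-2 alpha, averaged 48.2 ± 1.71 CPM in hypoxia and 29 ± 0.208 CPM in normoxia (log2 fold change 0.73). Transcript levels say nothing of the protein, which is the form that oxygen controls. CITED2, which competes with HIF for its co-activators, was at 2.63, and BHLHE41 had 14 counts over the hypoxic libraries and 0 over the normoxic ones. EP300, a co-activator, fell (-1.0).

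The EGLN oxygen sensors that turn HIF off rose. EGLN1 was at 1.60, EGLN2 at 1.48 and EGLN3, the most inducible of the 3 in other systems, had 21, 23.9 and 22.3 CPM in the hypoxic libraries, against 4.65, 3.51 and 3.99 CPM in the normoxic libraries (log2 fold change 2.47). All hypoxic libraries lay above all normoxic ones for EGLN3. After the composition correction EGLN1, EGLN2 and EGLN3 were at 2.28, 0.88 and 2.42. HIF1AN, another hydroxylase of the list, was not called (0.06, and 0.56 after the correction). Of the 11 tested genes of oxygen sensing and the VHL complex 7 were higher and 1 lower, the fall being that of CUL2, the scaffold of the VHL ligase (-3.45, SE 0.15). The median of this list was 0.35, and 0.56 after the composition correction, and with plain library-size scaling 4 were higher and 6 lower (median -0.14).

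Glycolysis rose as a whole. Of 19 tested genes 17 were higher, 1 was lower (PFKM, the muscle phosphofructokinase, -0.39) and HK1, a constitutive hexokinase, was not called (-0.04, and -0.52 and a call with plain library-size scaling). Together the genes of the list took 4.06%, 4.08% and 4.05% of the counts in the hypoxic libraries, against 1.49%, 1.43% and 1.46% in the normoxic libraries. The list had a median log2 fold change of 1.94, and 1.52 after the composition correction, and it was 1.45 with plain library-size scaling. SLC2A1, the glucose transporter GLUT1, had 441, 443 and 441 CPM in the hypoxic libraries, against 33.1, 30.2 and 29.2 CPM in the normoxic libraries (log2 fold change 3.84, SE 0.04, adjusted p = 6.2e-64). At the first step HK2, the inducible hexokinase, averaged 60.3 ± 1.49 CPM in hypoxia and 17.9 ± 0.493 CPM in normoxia. PFKFB4, which makes the sugar phosphate that speeds phosphofructokinase, averaged 479 ± 3.18 CPM in hypoxia and 30.9 ± 3.69 CPM in normoxia (15.5-fold). PGK1, phosphoglycerate kinase, had 3575, 3607 and 3599 CPM in the hypoxic libraries, against 441, 448 and 459 CPM in the normoxic libraries, an 8.0-fold rise with tight replicates. LDHA, lactate dehydrogenase, was at 1.77 and its partner LDHB had 0 counts in hypoxia and 3 in normoxia.

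The isoenzymes of one step rose by different amounts. ALDOC, the brain aldolase, rose 15.4-fold (SE 0.03 on the log2 scale) and ALDOA, the aldolase of muscle and most other tissues, 4.85-fold (SE 0.04). ENO2, the neuronal enolase, rose 11.2-fold (SE 0.09) and ENO1, the general one, 4.29-fold (SE 0.03). The level of ENO2 per kilobase of exon was 7.41 CPM in hypoxia and 0.657 CPM in normoxia, and that of ENO1 was 2504 and 583 CPM, so the scarcer enolase had the larger fold change. ENO1 and PKM, pyruvate kinase, were among the 8 genes that gained the largest share of all counts. ENO1 took 1.12% of counts in hypoxia and 0.364% in normoxia, and PKM 0.923% and 0.349%.

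Lactate and acid transporters moved in both directions. SLC16A3, the lactate exporter MCT4, had 821, 789.8 and 813 CPM in the hypoxic libraries, against 43.2, 40 and 42.2 CPM in the normoxic libraries (log2 fold change 4.27, SE 0.03, adjusted p = 4.31e-68). SLC16A1, the transporter MCT1 used for lactate uptake, fell (-1.77, SE 0.25), while BSG, the chaperone of both transporters, rose (1.35). SLC4A7, a bicarbonate importer, fell (-1.80, and -0.36 with no call after the composition correction). Of the 7 tested genes 5 were higher and 2 lower.

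Transcripts of pyruvate dehydrogenase, which turns pyruvate into acetyl-CoA in the mitochondrion, fell and those of a kinase that inactivates it rose. PDK1, that kinase, had 32.8, 31.3 and 33 CPM in the hypoxic libraries, against 5.58, 5.18 and 4.38 CPM in the normoxic libraries (log2 fold change 2.68, SE 0.09, adjusted p = 3.21e-35). The genes of the dehydrogenase itself were lower, with PDHA1 at -0.81, PDHB at -0.99 and DLAT at -1.24. These falls were -0.64, -0.51 and -0.56 after the composition correction. BNIP3, a receptor for mitophagy, rose 23.7-fold to 562 ± 3.23 CPM, against 23.7 ± 0.792 CPM in normoxia. NDUFA4L2, which lowers complex I activity in hypoxic cells, was at 2.60, and MXI1, which opposes MYC, at 2.35. Over the 18 tested genes of this list 11 were higher and 7 lower, with a median of 0.44. With plain library-size scaling 8 were higher and 8 lower (median -0.05).

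Glycogen genes were split. Beside PPP1R3C, GYS1, glycogen synthase, averaged 517 ± 5.50 CPM in hypoxia and 125 ± 6.0 CPM in normoxia (2.05), and PGM1, which makes the glucose phosphate used for glycogen, 92.3 ± 2.53 CPM in hypoxia and 19.7 ± 1.15 CPM in normoxia (2.23). STBD1, a glycogen-binding protein, was at 1.85. PHKB, a subunit of phosphorylase kinase, fell (-2.94), a gene of low GC content at 40.6%. In all 8 of 16 genes were higher and 7 lower (median 0.48), 6 and 6 after the composition correction (median 0.08), and 5 and 7 with plain library-size scaling (median 0).

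Secreted factors rose in 15 of 18 cases and fell in 2, with a median log2 fold change of 1.58, and 0.89 after the composition correction. VEGFA, the main signal for vessel growth, had 242, 248 and 239.6 CPM in the hypoxic libraries, against 24.2, 22.2 and 22 CPM in the normoxic libraries (log2 fold change 3.42, SE 0.04, adjusted p = 3.94e-59). PGF, placental growth factor of the same family, averaged 16.8 ± 1.14 CPM in hypoxia and 0.728 ± 0.268 CPM in normoxia (23-fold). IGFBP3, which binds insulin-like growth factors, was at 2.67, TGFB1 at 2.42 and ADM, the vasodilator adrenomedullin, at 1.78. TGFB3 fell (-0.37). LEP, leptin, had 0 counts in all 6 libraries.

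Enzymes that hydroxylate and crosslink collagen rose in 9 of 10 cases (median 1.45, and 1.26 after the composition correction). LOX, lysyl oxidase, which crosslinks collagen and is tied to metastasis in hypoxic breast tumours, had 7.56, 7.91 and 9.73 CPM in the hypoxic libraries, against 0.326, 0.571 and 0.434 CPM in the normoxic libraries (log2 fold change 4.22, SE 0.21, adjusted p = 2.12e-26). The groups were an order of magnitude apart, although LOX is an AT-rich transcript (39.6% GC) of a kind that was mostly lower here. P4HA2, a prolyl hydroxylase of collagen, was at 2.26, P4HA1 at 0.66, PLOD1, a lysyl hydroxylase, at 2.37 and ERO1A, the oxidase that feeds disulphide bonds, at 1.09. PLOD2 was the fall of the list (-0.90, and 0.43 after the correction, at 34.4% GC).

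Lipid genes rose in 10 of 14 cases and fell in 3. G0S2, an inhibitor of fat breakdown, averaged 0.988 ± 0.0821 CPM in hypoxia and 0.0594 ± 0.0668 CPM in normoxia, HILPDA, which acts on the same lipase, was at 2.51, and VLDLR, a lipoprotein receptor, averaged 5.28 ± 0.347 CPM in hypoxia and 0.728 ± 0.179 CPM in normoxia (2.85). SCD, stearoyl-CoA desaturase, an enzyme that needs oxygen, was at 1.83, and ACACA, acetyl-CoA carboxylase, fell (-1.84). In cholesterol synthesis 16 of 21 genes were higher and 5 lower, with HMGCS1, the synthase early in the pathway, at -1.62, DHCR7 at 1.85 and the brake INSIG1 at 1.99. With plain library-size scaling 9 of the cholesterol genes were higher and 9 lower and the median of 0.44 became -0.04, and the lipid median of 0.88 became 0.11 after the composition correction.

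Fold changes followed base composition across the whole table. Among protein-coding genes the lowest of 5 equal GC bins (30.2% to 41.0%) held 121 genes that were higher and 2148 that were lower of 2510, with a median of -1.48. The highest bin (58.9% to 76.0%) held 2165 higher and 90 lower of 2510, with a median of 0.76. Spearman's rho between fold change and GC content was 0.694 over 14816 genes, and -0.311 between fold change and transcript length, given as descriptions of genes that share the same 6 libraries. Longer genes fell more often: of the 3 equal length bins of protein-coding genes, the one above 6585 bp of exon had 56.0% lower and 31.5% higher, and the one under 3848 bp had 26.7% lower and 54.0% higher. Length and GC content went together, the long bin holding 1227 genes of the lowest GC bin and 438 of the highest, the short bin 433 and 1273. In the lowest GC bin 89.9% of long and 74.1% of short genes were lower. In the highest the order was reversed, at 1.83% of long and 5.11% of short genes. After the composition correction, a smooth fit of GC content and length in each library, the rho with GC content was 0.0114, the overall median shifted by -0.24, and 4391 genes were higher and 6171 lower. Under it 3035 of the higher and 3576 of the lower calls remained and 2412 turned to the opposite call. Among the 177 genes named with values, the correction moved the signed fold change up by over 1.5 times in 77. The fold change moved down by over 1.5 times in 43, and by less in 57. A fall that became smaller, such as that of ATR (-4.27 before and -2.87 after), counts as a move up. Whether base composition is the source of any fall or rise was not tested.

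**Figure D2:**
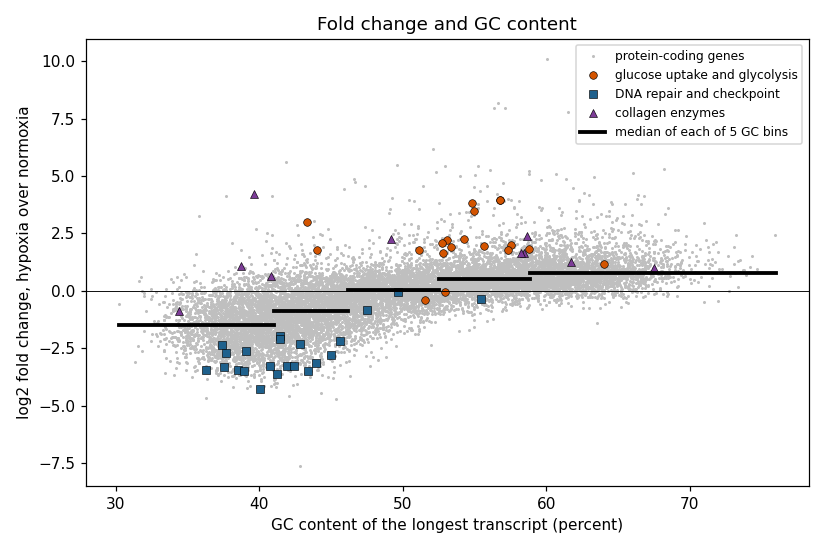
Log2 fold change, hypoxia over normoxia, against the GC content in percent of the longest transcript, for protein-coding genes (grey) with the glycolysis (orange circles), DNA repair (blue squares) and collagen enzyme (purple triangles) lists. Black bars are medians of 5 equal GC bins, from -1.48 in the lowest to 0.76 in the highest. LOX, at 4.22, stands far above its bin.

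Some genes moved against this trend. In the lowest GC bin the largest rises, chosen after their values were seen, were LOX, TMEM45A, PDK1, BTG1, CCNG2 and FAM162A. TMEM45A, a membrane protein known to be induced by hypoxia in other cells, averaged 2.45 ± 0.427 CPM in hypoxia and 0.133 ± 0.0402 CPM in normoxia (4.12). BTG1, an antiproliferative gene, had 139, 147 and 152 CPM in the hypoxic libraries, against 44.8, 42.1 and 42.2 CPM in the normoxic libraries (log2 fold change 1.76, SE 0.04, adjusted p = 3.29e-41). CCNG2, an atypical cyclin that restrains the cell cycle, averaged 110.4 ± 0.939 CPM in hypoxia and 35.1 ± 3.04 CPM in normoxia (1.65), and FAM162A, a mitochondrial protein first described as a HIF target, 45.8 ± 1.67 CPM in hypoxia and 15.6 ± 0.606 CPM in normoxia (1.56). For BTG1 every hypoxic library was above every normoxic one by a wide margin.

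In the highest GC bin the largest falls were small before the composition correction. HSPA1A, an inducible heat shock protein with a near-identical copy in HSPA1B, averaged 154 ± 5.85 CPM in hypoxia and 269.6 ± 5.78 CPM in normoxia (-0.80). CHAC1, a glutathione-degrading target of ATF4, was at -0.76. SRM, spermidine synthase, averaged 116 ± 6.85 CPM in hypoxia and 196 ± 11.4 CPM in normoxia (-0.75), and ATAD3A, a mitochondrial membrane ATPase, was at -0.69. RRP9, of ribosomal RNA processing, and WDR4, of transfer RNA modification, were at -0.63 and -0.57. None of these GC-rich genes fell by as much as 2-fold before the composition correction. After it all of them did, with HSPA1A at -1.73, CHAC1 at -1.79 and SRM at -1.825. ATAD3A was then at -1.73, RRP9 at -1.66 and WDR4 at -1.47.

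**Figure D3:**
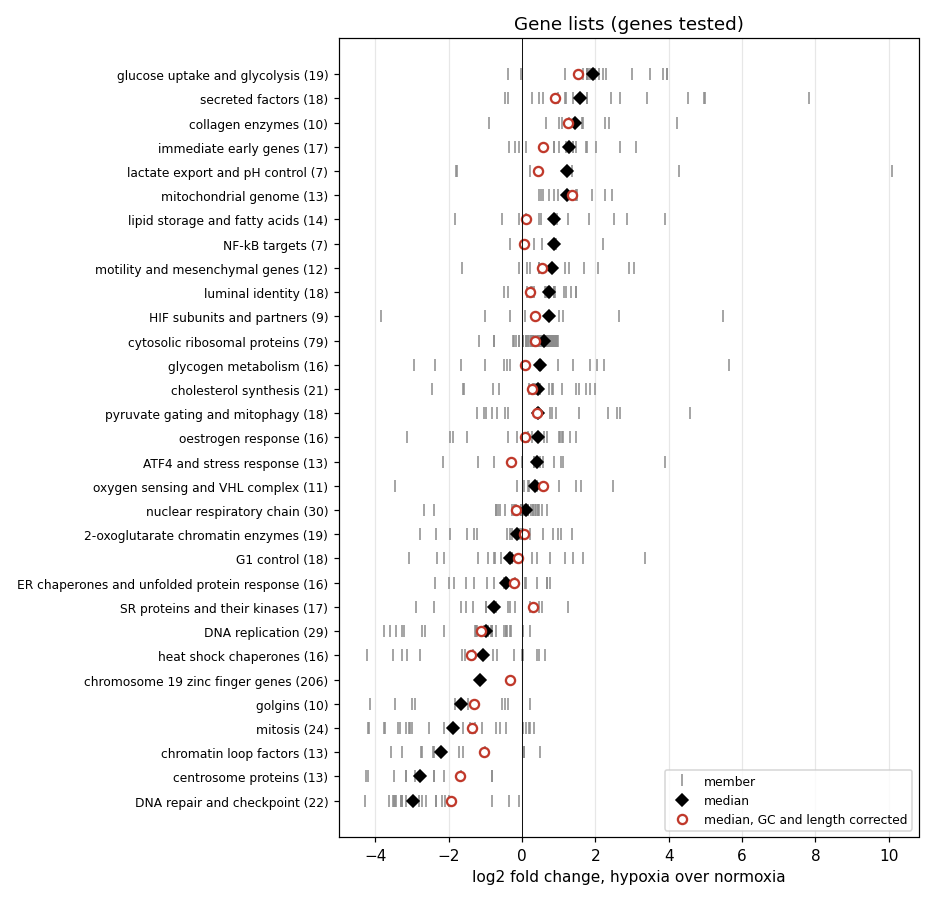
Log2 fold change, hypoxia over normoxia, of the tested members of each gene list (grey ticks; not drawn for the 206 zinc finger genes), with the list median (black diamond) and the median after the composition correction (open red circle). Glycolysis stands at the top with 1.94 and DNA repair at the bottom with -2.98, and the corrected medians lie closer to 0 in both.

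Nearly all genes of DNA repair and checkpoints were lower. Of 22 genes of DNA repair and checkpoints 21 were lower and 0 higher, CHEK2, a checkpoint kinase, being the 1 without a call (-0.07). The median was -2.98, and -1.93 after the composition correction, and the list took 0.00949% to 0.00992% of the counts in hypoxia and 0.0556% to 0.0586% in normoxia. These genes had a median GC content of 41.4% and a median exon length of 7.88 kb. Of all protein-coding genes above 6585 bp of exon, 89.9% were lower in the lowest GC bin (median -1.69). In the second GC bin 78.3% of such long genes were lower (median -1.11). ATR, the kinase that senses stalled replication, had 1.17, 1.01 and 1.40 CPM in the hypoxic libraries, against 22, 23.2 and 24.5 CPM in the normoxic libraries (log2 fold change -4.27, SE 0.15, adjusted p = 4.11e-34). The hypoxic libraries held 18, 16 and 23 ATR counts and the normoxic ones 472, 528 and 565. MRE11, which trims broken ends, was at -3.46, FANCI, of crosslink repair, at -3.51, and the helicases BLM and WRN at -3.62 and -3.49.

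Replication and mitosis fell too, less evenly. Of 29 replication genes 27 were lower and 1 higher (median -0.97, and -1.11 after the correction). CLSPN, which carries the ATR signal, averaged 0.899 ± 0.271 CPM in hypoxia and 12.2 ± 0.740 CPM in normoxia (-3.75), POLA1, the priming polymerase, was at -3.61, RRM1, the large subunit of ribonucleotide reductase, at -3.28 and PCNA, the sliding clamp, at -1.23. The helicase subunits ranged widely, with MCM6 at -3.22 and MCM2 at -0.34. Of 24 mitosis genes 19 were lower and 4 higher (median -1.87, and -1.35 corrected). Their median GC content was 42.4%, and 71.7% of all protein-coding genes in the second GC bin were lower. CENPF, of the kinetochore, had 5.99, 6.07 and 4.32 CPM in the hypoxic libraries, against 90.2, 101 and 101 CPM in the normoxic libraries (log2 fold change -4.16). KIF15, a spindle motor, was at -4.19 and MKI67, the proliferation marker Ki-67, at -3.01, while the cyclin genes CCNB1 and CCNB2 were at -1.08 and -0.45, CCNB2 being at -0.01 with no call after the correction.

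Regulators of G1 moved in both directions. CDKN1C, the inhibitor p57, averaged 3.53 ± 0.220 CPM in hypoxia and 0.338 ± 0.280 CPM in normoxia (3.35), CDKN1A, p21, was at 1.38 and CDKN1B, p27, at 0.77. CCNE2, cyclin E2, was at -2.32, and CCNE1 at -0.94. RBL1 and RBL2, pocket proteins that restrain entry into S phase, were lower too, at -3.09 and -0.75, the second being at 0.08 with no call after the composition correction. Of the 18 tested genes 7 were higher and 11 lower.

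Centrosome and golgin genes were mostly lower. All 13 centrosome genes were lower (median -2.79, and -1.70 after the correction), with CEP295 at -4.24 and AKAP9, which anchors kinases at the centrosome, at -4.21, down to PCNT, pericentrin, at -0.82. Of 10 golgins, coiled-coil tethers of the Golgi, 9 were lower, GOLGA4 having 5.80, 5.31 and 5.60 CPM in the hypoxic libraries, against 88.8, 105 and 104 CPM in the normoxic libraries (log2 fold change -4.15). AHCTF1, which starts nuclear pore assembly, was at -4.16, and UTP20, of ribosome assembly, at -4.10. DDX21, a helicase of the nucleolus, had 7.10, 6.90 and 9.0 CPM in the hypoxic libraries, against 130.1, 131 and 129 CPM in the normoxic libraries (log2 fold change -4.08, SE 0.07, adjusted p = 6.83e-50). ABCA12, a lipid transporter, and BLTP1, a lipid bridge protein, fell 16.8-fold and 16.2-fold. For DDX21 and GOLGA4 the lowest normoxic library stood more than 10-fold above the highest hypoxic one. The median GC content was 41.3% in the centrosome genes and 45.6% in the golgins, with median exon lengths of 10.4 and 10.5 kb. Of all protein-coding genes above 6585 bp of exon, 89.9% in the lowest GC bin and 78.3% in the second were lower.

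Factors that hold chromatin loops fell in 10 of 13 cases, MAU2 alone being higher (0.50, and 0.02 with no call after the composition correction). This group bears on the series, which concerns chromatin folding. SMC3, a core cohesin subunit, averaged 1.85 ± 0.0771 CPM in hypoxia and 22 ± 0.730 CPM in normoxia (-3.57), NIPBL, the cohesin loader, was at -3.28, RAD21, the ring closing subunit, at -1.73, WAPL, the cohesin release factor, at -2.40, and CTCF, the boundary protein, had 22.7, 20.6 and 18.2 CPM in the hypoxic libraries, against 45, 39.9 and 38.9 CPM in the normoxic libraries (log2 fold change -1.01). The median of -2.21 was -1.05 after the composition correction and -2.69 with plain library-size scaling. The 13 genes had a median GC content of 40.8% and a median exon length of 8.72 kb. Of all protein-coding genes above 6585 bp of exon, 89.9% were lower in the lowest GC bin (median -1.69). In the second GC bin 78.3% of such long genes were lower (median -1.11).

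Chromatin enzymes that need oxygen and 2-oxoglutarate were mixed: 6 of 19 were higher and 9 lower, with a median of -0.14, and with plain library-size scaling 3 were higher and 14 lower. After the composition correction 8 were higher and 8 lower (median 0.05). KDM4B, an H3K9 demethylase known as a HIF target, was at 1.35 and KDM6B, an H3K27 demethylase, at 1.07. JMJD1C was at -2.79, KDM5A at -2.35, TET2, which oxidises methylcytosine, at -1.95 and KDM6A at -1.51. KDM3A, another known HIF target, was at -0.14 without a call, and at 1.0 after the correction.

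Chaperones fell. Of 16 heat shock genes 10 were lower and 3 higher (median -1.07), and after the composition correction all 16 were lower (median -1.39). HSP90AA1, the inducible HSP90, had 82.7, 72.2 and 73.7 CPM in the hypoxic libraries, against 857, 876 and 909.6 CPM in the normoxic libraries (log2 fold change -3.53, SE 0.04, adjusted p = 1.04e-44). HSPH1, a nucleotide exchange factor for HSP70, fell 18.8-fold, DNAJA1, a co-chaperone, was at -3.28 and HSPD1, the mitochondrial chaperonin, at -2.79. HSPA8, the constitutive HSP70, lost the largest share of all counts, at 0.0946% in hypoxia and 0.333% in normoxia. HSF1, the heat shock factor, was higher (0.62, and -0.31 after the correction). Of 16 genes of the endoplasmic reticulum 9 were lower and 6 higher, with EIF2AK3, the stress kinase PERK, at -2.36, HSP90B1 at -1.85 and XBP1 at 0.77.

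Among ATF4 and stress genes DDIT4, which restrains mTOR and is a known HIF target, averaged 279 ± 9.19 CPM in hypoxia and 18.6 ± 0.590 CPM in normoxia (15-fold). SLC7A11, the cystine importer, fell (-2.16), as did PSAT1, of serine synthesis (-1.21). The list had 9 of 13 higher and 3 lower, with a median of 0.40. After the composition correction 5 were higher and 7 lower (median -0.30), and with plain library-size scaling 5 were higher and 5 lower (median -0.09).

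Other abundant genes with large falls had varied roles. The helicase genes DHX9, DDX3X and DDX5 averaged 18.4 ± 0.727, 17.6 ± 1.06 and 25.4 ± 0.990 CPM in hypoxia, against 170.2 ± 3.52, 141 ± 3.79 and 204 ± 3.01 CPM in normoxia. XRCC5, which binds broken DNA ends, fell 8.55-fold, CKAP5, a microtubule polymerase, 9.66-fold, EIF3A, of translation initiation, 7.71-fold and HSPA9, the mitochondrial HSP70, 7.11-fold. DHX9, DDX3X and DDX5 were at -3.21, -3.01 and -3.01, and at -2.57, -1.49 and -2.10 after the composition correction. XRCC5, CKAP5, EIF3A and HSPA9 were then at -2.52, -2.55, -2.13 and -2.02. In the lowest GC bin, which holds DDX3X, 85.6% of protein-coding genes were lower. In the second, which holds the others, 71.7% were lower. Of 17 SR splicing proteins and their kinases 13 were lower and 4 higher, and the median was -0.77. Corrected for composition, 8 were higher and 5 lower (median 0.31). SRPK1, an SR protein kinase, was at -2.90 and -2.37, and SRSF7 at -2.40 and -1.48, before and after it.

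Genes of the mitochondrial genome rose together, while nuclear genes of the same complexes were mixed or, with plain library-size scaling, mostly lower. All 13 of its protein-coding genes were higher (median 1.22, 1.37 after the correction and 0.73 with plain library-size scaling, under which 10 of the 13 were called). MT-CO1, of cytochrome oxidase, had 27439, 28167 and 28107 CPM in the hypoxic libraries, against 7268, 7327 and 7564 CPM in the normoxic libraries, a 3.78-fold rise. MT-ND6, the gene on the other strand of the circle, rose most (log2 fold change 2.45, SE 0.06, adjusted p = 1.79e-08; its reads and those of the opposite strand cannot be told apart without the strand setting), and MT-CO3 least (0.46, and -0.02 and no call with plain library-size scaling). Of 30 nuclear genes of the respiratory chain 13 were higher and 11 lower with a median of 0.10. After the composition correction 10 were higher and 16 lower (median -0.16), and with plain library-size scaling 1 was higher and 25 lower (median -0.38). UQCRC2, of complex III, was at -2.41 and NDUFS1, of complex I, at -2.67. Nuclear copies of mitochondrial genes can share reads with them, and polyA selection weights mitochondrial transcripts in its own way.

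**Figure D4:**
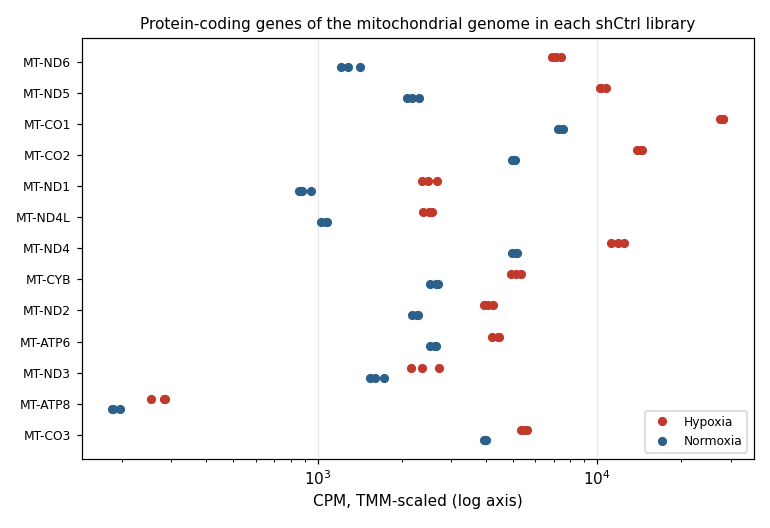
CPM on a log axis of the 13 protein-coding genes of the mitochondrial genome in each of the 3 hypoxic (red, upper row of points) and 3 normoxic (blue, lower row) libraries, ordered by fold change. The hypoxic points lie right of the normoxic ones in every gene, furthest for MT-ND6 at 2.45 and least for MT-CO3 at 0.46 on the log2 scale (which became -0.02 with plain library-size scaling).

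Cytosolic ribosomal protein genes rose in 65 of 79 cases and fell in 8, by little (median 0.61). With the composition correction 49 were higher and 20 lower (median 0.35), and with plain library-size scaling 41 were higher and 22 lower (median 0.12). RPL15 was at 0.99 and RPL14 at -1.16, the ends of the range. Processed pseudogenes can share reads with these genes. The zinc finger genes of chromosome 19, a clustered family of repressors, fell in 147 of 206 cases and rose in 27 (median -1.14), and after the composition correction 77 were lower and 29 higher (median -0.34). Their median GC content was 42.4%, and 71.7% of all protein-coding genes in the second GC bin were lower.

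Luminal genes rose in most cases. Of 18 luminal genes 16 were higher and 2 lower (median 0.74), 11 and 3 after the composition correction (median 0.21), and 12 and 6 with plain library-size scaling (median 0.25). The list took 5.46% to 5.51% of counts in hypoxia and 3.09% to 3.24% in normoxia. ELF3, an epithelial transcription factor, was at 1.21 and MUC1, an apical mucin, at 1.33. KRT8 and KRT19 gained 1.46 and 0.726 percentage points of all counts. ESR1, the oestrogen receptor, averaged 67.3 ± 1.86 CPM in hypoxia and 86.7 ± 5.84 CPM in normoxia (-0.37, and 0.23 after the correction), and PGR, the progesterone receptor, 72.4 ± 2.36 CPM in hypoxia and 269 ± 13 CPM in normoxia (-1.89, and -0.58 after the correction). Of 16 oestrogen response genes 10 were higher and 6 lower, with TFF1 at 1.31 (0.31 and no call after the correction) and MYB at -1.95, and a median of 0.43. With plain library-size scaling 8 were higher and 8 lower (median -0.05).

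Early response genes rose in most cases. Of 17 immediate early genes 13 were higher and 1, DUSP6, lower (-0.36, a call that was lost whenever any 1 of the 6 libraries was left out), with a median of 1.29 and 0.58 after the correction. FOS had 20.4, 18.1 and 20.4 CPM in the hypoxic libraries, against 2.79, 2.63 and 1.39 CPM in the normoxic libraries (log2 fold change 3.11, SE 0.14, adjusted p = 7.45e-25), FOSL2 was at 2.67 and JUN at 1.38. Of 7 tested NF-kB targets 6 were higher and 0 lower, with ICAM1, an adhesion molecule for leukocytes, at 2.22 (median 0.86). Corrected for composition, 2 were higher and 1 lower (median 0.05), and with plain library-size scaling 3 were higher and 1 lower. Among 12 motility and mesenchymal genes 6 were higher and 1 lower. CXCR4, the chemokine receptor tied to breast cancer metastasis, averaged 1.54 ± 0.531 CPM in hypoxia and 0.179 ± 0.0452 CPM in normoxia (3.06), TGFBI was at 2.91, ITGA5, an integrin, at 2.08 and ITGB1 at -1.63. SNAI2, ZEB1 and IL6 had 0 counts in all 6 libraries.

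The gene named in the series did not pass the test as set out above, and its direction changed with the scaling. ZHX2 had 21.6, 18.3 and 16.4 CPM in the hypoxic libraries, against 16.5, 15.9 and 18.3 CPM in the normoxic libraries (log2 fold change 0.15, adjusted p = 0.265), and the groups overlapped. ZHX2 was called lower with plain library-size scaling (-0.34) and after the composition correction (-0.29). Its relative ZHX1 fell (-2.48, SE 0.10) and HOMEZ rose (1.07).

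Long noncoding RNAs were higher in 642 of 1406 cases and lower in 127, against 5397 and 5228 of 12547 protein-coding genes. Their median was 0.54, and it was 0.15 after the composition correction and 0.05 with plain library-size scaling. The medians of protein-coding genes were 0.04, -0.16 and -0.45 in the same order. MIR210HG, the host of the hypoxia microRNA miR-210, had 29.6, 27.5 and 29.1 CPM in the hypoxic libraries, against 1.21, 1.67 and 1.78 CPM in the normoxic libraries (log2 fold change 4.20, SE 0.11, adjusted p = 3.81e-40). It was at least an order of magnitude higher in every hypoxic library. SAP30-DT rose 13.4-fold and ZNF350-AS1 10.4-fold. TUG1 fell 4.72-fold, GASK1B-AS1 3.82-fold, THAP9-AS1 3.72-fold and PSMA3-AS1 3.33-fold. These falls were -2.24, -1.93, -1.89 and -1.73 on the log2 scale, and -1.28, -1.85, -1.22 and -0.43 after the composition correction. For the rises, MIR210HG was then at 3.30, SAP30-DT at 4.82 (3.75 before it) and ZNF350-AS1 at 2.70 (3.38 before it). The strand setting of the counting is not given in the sources used here, and reads of antisense genes and of the genes they overlap therefore cannot be told apart.

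Other hypoxic control libraries of the series show how far these levels carry over. They come from separate tables that were scaled separately, carry no normoxic group of their own, and are given as levels only. NDRG1 averaged 485 CPM in the hypoxic shCtrl libraries, 209 CPM in the hypoxic Ctrl libraries of the hexanediol table and 5028 CPM in the hypoxic shCtrl libraries with vector of the rescue table, and 6.71 CPM in normoxia. CA9 averaged 23.5, 0.895 and 198 CPM in the same 3 hypoxic groups and 0.0145 CPM in normoxia. Both markers were above their normoxic level in every hypoxic group. SLC16A3 was not, at 808, 23.8 and 40 CPM in hypoxia and 41.8 CPM in normoxia.

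The falls carried over unevenly. ATR averaged 1.19, 52.5 and 2.89 CPM in the 3 hypoxic groups, in the same order, and 23.2 CPM in normoxia. GOLGA4 averaged 5.57, 1299 and 21.1 CPM in hypoxia and 99.2 CPM in normoxia. In the hexanediol control both genes lay above the normoxic level found here. HIF1A averaged 5.06, 79.2 and 40.3 CPM in hypoxia and 72.5 CPM in normoxia. The mean GC content of counted genes was 47.56% to 47.68% in the hexanediol control and 53.04% to 53.17% in the rescue control, and the mitochondrial genome took 5.54% to 5.73% and 0.749% to 0.778% of counts. How far these library traits account for the differences between the hypoxic groups was not tested.

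**Figure D5:**
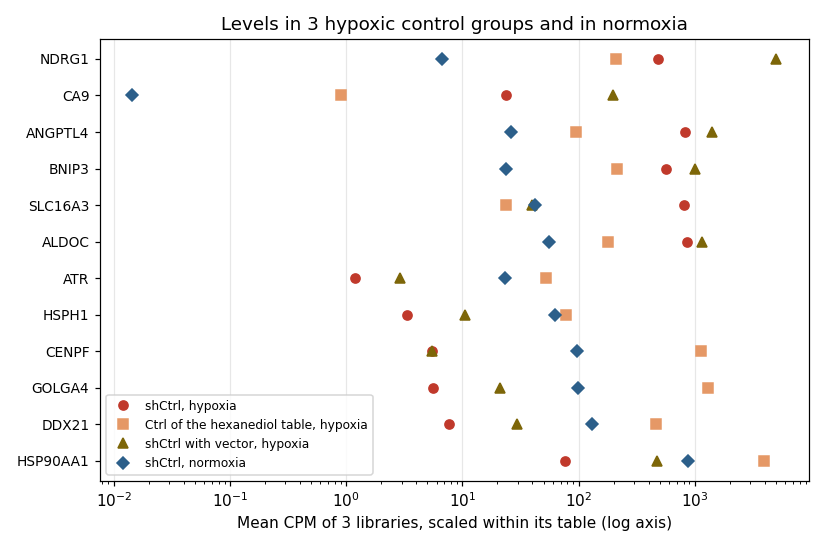
Mean CPM of 3 libraries on a log axis for 12 genes in the hypoxic shCtrl group (red circles), the hypoxic Ctrl group of the hexanediol table (orange squares), the hypoxic shCtrl group with vector (olive triangles) and the normoxic shCtrl group (blue diamonds), each table scaled on its own. NDRG1, CA9, ANGPTL4, BNIP3 and ALDOC lie right of normoxia in all 3 hypoxic groups, while ATR spans 1.19 to 52.5 CPM among them.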

How the data were processed

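RNA sequencing counts of the 6 shCtrl libraries were analysed with the 3 hypoxic shZHX2 libraries of the same table, which share 1 estimate of the spread. The authors deposited raw read counts for 60624 Ensembl gene identifiers. They worked on hg38 and list DESeq2, featureCounts, FastQC and HISAT2, per the submitters' processing notes. What each tool did, its version, the gene models and whether counting used strand are not given in the sources consulted. Symbols were matched for 60370 identifiers and 58437 had an entry in GENCODE release 29 on GRCh38, which gave types, positions, exon length and GC content, missing for 87 tested genes.

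Counts were filtered with filterByExpr, scaled by TMM and tested with edgeR 4.0.16 in R 4.3.3 by a quasi-likelihood model with robust dispersions. Calls used a Benjamini-Hochberg adjusted p under 0.05 over all tested genes. Each SE was derived from the log2 fold change and the F statistic. The code was tested on simulated data. Replicate pairs differed by more than sampling (chi-square over its degrees of freedom 1.91 to 3.26), so each library counted once. The correction for GC content and length (composition correction) took a smooth fit per library (mgcv 1.9.3) as an offset. Genes were named as the 12 largest rises and 12 largest falls (average log2 CPM of at least 1, protein-coding, groups apart), 8 and 8 at a log2 CPM of at least 6, 4 and 4 long noncoding RNAs, 8 and 8 by share of counts, and list members by size and role. The comparison and the 33 gene lists were chosen with earlier results of these data known, so no list gets a test. The 30 library columns of other groups were not used. Promoter windows were RefSeq's. Some genes that this rule or the lists hold are not reported here.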

Additional observations from a re-analysis of the deposited data

How the results depend on the processing

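All 4 counts of calls stayed within 1.5 times their main value with RLE size factors, DESeq2, TMM without the mitochondrial genome, both filters, only the 6 libraries, an adjusted p under 0.01 and the replicate block. The balance of rises and falls was less stable. With only the 6 libraries 5540 genes were higher and 5921 lower, so that lower calls became the majority. At least 2-fold higher were then 1736 genes, and 3492 were at least 2-fold lower. With plain library-size scaling there were 3385 genes higher and 1063 at least 2-fold higher. With the composition correction 1507 genes were at least 2-fold higher and 1911 at least 2-fold lower (1502 and 1912 with the replicate block added). Leaving out 1 library gave 6241 to 6309 genes higher, 5342 to 5416 lower, 2293 to 2373 at least 2-fold higher and 3227 to 3310 at least 2-fold lower. The replicate block gave 6405 higher and 5473 lower, and the same replicate numbers did not deviate together (correlations -0.00524, 0.0261 and -0.0153), so the numbers were not taken to pair the libraries.

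Of 177 genes named with values, some changed direction. After the composition correction ESR1 was at 0.23, HSF1 at -0.31, KDM3A at 1.00, PLOD2 at 0.43, RBL2 at 0.08 and ZHX2 at -0.29, with and without the replicate block. With plain library-size scaling MT-CO3 was at -0.02 and ZHX2 at -0.34. ZHX2 had no call in the main setting and was called lower under each of these. The cause was not tested. Under only the 6 libraries, which changes the filter and the scaling, the median of all genes moved by -0.13. Low counts limit genes under 1 CPM, whose fold changes rest on few reads.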
